A study of Mus musculus with 4 samples.

Results

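Apoe, Clu and Cst3 encode 3 proteins that brain cells secrete, and their transcripts were followed here in ribosome footprints of astrocytes and neurons. The members were 3 Ensembl mouse transcript IDs, ENSMUST00000174064 (Apoe), ENSMUST00000022616 (Clu) and ENSMUST00000028938 (Cst3), of 23175 IDs with a count in any library. They were chosen by name as secreted astrocyte proteins, with their footprint levels in astrocytes and neurons in view, so the difference between the cell types is given as a description without a test. All 3 IDs had counts in every library and passed the filter on low values. The deposited files give no gene name for an ID, and the pairing of the names with these IDs was taken as given.

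Apolipoprotein E, the product of Apoe, carries cholesterol and other lipids on lipoprotein particles and is taken up through receptors of the LDL receptor family. Clusterin, or apolipoprotein J, the product of Clu, is an extracellular chaperone that binds unfolded proteins and also associates with lipoproteins. Cystatin C, the product of Cst3, inhibits cysteine proteases of the cathepsin family. All of them enter the secretory pathway through a signal peptide, and astrocytes are known as a main source of apolipoprotein E and clusterin in the brain. Microglia, choroid plexus and some neurons can also make some of these proteins.

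Whole brains were taken at postnatal day 21 from mice of the C57BL/6J strain, and 4 libraries were made, 2 per cell type, each from 2 pooled brains. Astrocyte libraries were made from Aldh1l1::eGFP-RpL10a mice and neuron libraries from Snap25::eGFP-RpL10a mice, in which the regulatory elements of the named gene drive a GFP-tagged protein of the large ribosomal subunit. Ribosomes with the tag were pulled down through GFP in the presence of cycloheximide, and RNase I then removed the unprotected RNA, so that a count is a fragment that a captured ribosome covered. The libraries hold 7210269 to 12833187 counts. Each count belongs to a region of a transcript, lettered a to d, and the sources used here do not say what the letters stand for. For lack of gene names, markers of astrocytes, neurons or other brain cells were not examined, so the labelled cell types rest on the labels.

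The RefSeq table of promoters (GRCm38.p6) holds 1 start of Cst3 and 3 starts of Apoe. The 250 bases before a start are shown for Apoe and Cst3, whose levels move together between the cell types. Clu is also higher in astrocytes but follows their pattern less closely, and no window of Clu is used here. For Apoe the start farthest upstream was taken, and which start the counted transcript uses is not given. The Apoe window is chr7:19699189-19699438 and the Cst3 window is chr2:148875513-148875762, both on the minus strand. Capitals mark a GC box, GGGCGG on either strand.

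Apoe: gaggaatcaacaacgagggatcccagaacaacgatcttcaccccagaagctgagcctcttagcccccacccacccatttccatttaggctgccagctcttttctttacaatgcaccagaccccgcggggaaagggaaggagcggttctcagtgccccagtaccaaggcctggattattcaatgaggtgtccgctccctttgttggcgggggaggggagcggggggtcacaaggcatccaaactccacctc

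Cst3: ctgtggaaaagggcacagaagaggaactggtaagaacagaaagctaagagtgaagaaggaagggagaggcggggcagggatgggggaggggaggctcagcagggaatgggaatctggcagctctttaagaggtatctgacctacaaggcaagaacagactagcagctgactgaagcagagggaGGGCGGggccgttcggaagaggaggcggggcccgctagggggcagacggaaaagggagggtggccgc

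The Cst3 window held 1 GC box and none of the 3 Apoe windows held the letters, while 32.7% of the 32851 windows of the same length in the table held at least 1. A match is a description of the sequence only. In the RefSeq gene table no other gene overlaps the span of Apoe, Clu or Cst3, so counts without regard to strand would not mix them with an annotated neighbour.

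The first comparison asked how many footprints the transcripts carried in each cell type. All 3 were higher in astrocytes, and in every case both astrocyte libraries lay above both neuron libraries. Levels are in CPM, the count of a transcript over its 4 regions as a rate per 1000000 counts of the library, and are not corrected for length, so they are compared between libraries and not between genes.

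Apoe measured 10371 CPM in astrocyte 1 and 11305 CPM in astrocyte 2, against 1925 CPM in neuron 1 and 1119 CPM in neuron 2. It took 1.04% and 1.13% of all counts of the astrocyte libraries, where it ranked 1 among transcripts by count, and ranked 20 and 49 in the neuron libraries. The means were 10838 ± 660.0 CPM in astrocytes and 1522 ± 570.3 CPM in neurons (SD, n = 2 each). The edgeR fit over all transcripts gave a log2 difference, neuron minus astrocyte, of -2.95 (SE 0.31), which is 7.71-fold higher in astrocytes.

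Cst3 measured 5514 CPM in astrocyte 1 and 5894 CPM in astrocyte 2, against 1104 CPM in neuron 1 and 645.3 CPM in neuron 2. Its rank by count was 3 in both astrocyte libraries, against 48 and 119 in neuron 1 and 2. The means were 5704 ± 268.8 and 874.6 ± 324.4 CPM (SD, n = 2 each), and the fitted log2 difference was -2.82 (SE 0.29), or 7.06-fold.

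Clu measured 4265 CPM in astrocyte 1 and 4454 CPM in astrocyte 2, against 1211 CPM in neuron 1 and 668.5 CPM in neuron 2. Its rank by count was 4 in both astrocyte libraries, against 39 and 112 in neuron 1 and 2. The means were 4359 ± 133.7 and 939.8 ± 383.6 CPM (SD, n = 2 each), and the fitted log2 difference was -2.33 (SE 0.30), or 5.02-fold. The smallest gap between the cell types, the lowest astrocyte against the highest neuron library, was 5.39-fold for Apoe, 4.99-fold for Cst3 and 3.52-fold for Clu.

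**Figure D1:**
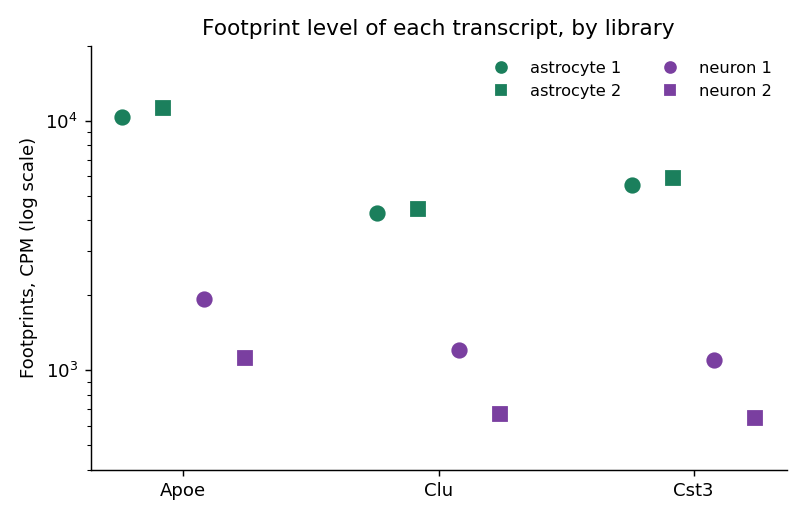
Footprint level of Apoe, Clu and Cst3 in CPM (log axis), 1 point per library, with circles for libraries numbered 1 and squares for those numbered 2. For each gene both astrocyte libraries lie above both neuron libraries, and neuron 1 lies above neuron 2.

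Of the 18819 transcripts tested, 17.1% passed the edgeR quasi-likelihood test at an adjusted p of 0.05, and 12.9% did so as higher in astrocytes. Both astrocyte libraries lay above both neuron libraries in 25.6%. Apoe, Clu and Cst3 are 3 of 3 by each of these measures, from which nothing is read since the contrast was in view when they were listed. Of the tested transcripts, 0.430% had a lower log2 difference than Apoe, 0.574% a lower one than Cst3 and 1.62% a lower one than Clu. For the same reason nothing is read from these places. With library totals in place of TMM factors the median of all tested transcripts moved from 0.03 to 0.15. Relative to that median the values were -2.98 for Apoe, -2.85 for Cst3 and -2.36 for Clu. They are alike under either scaling by construction, since the scaling shifts all transcripts by nearly the same amount.

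The remaining footprints in the neuron libraries differed between those libraries. Neuron 1 exceeded neuron 2 by 1.72-fold for Apoe, 1.81-fold for Clu and 1.71-fold for Cst3, while the astrocyte libraries differed by 1.09-fold, 1.04-fold and 1.07-fold. The direction was common among transcripts high in astrocytes. Of the 551 called at least 4-fold higher in astrocytes, 84.6% were higher in neuron 1 than in neuron 2, with a median of 1.42-fold. Over all tested transcripts the share was 46.8% and the median 0.976-fold. Among the 797 called higher in neurons the order was mostly the reverse, with 16.4% higher in neuron 1. These values share the neuron libraries with the fold itself. Whether the neuron counts came from neurons or from RNA of other cells was not tested, and in captured ribosomes of a whole brain fewer cells of a type and less RNA per cell cannot be told apart.

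**Figure D2:**
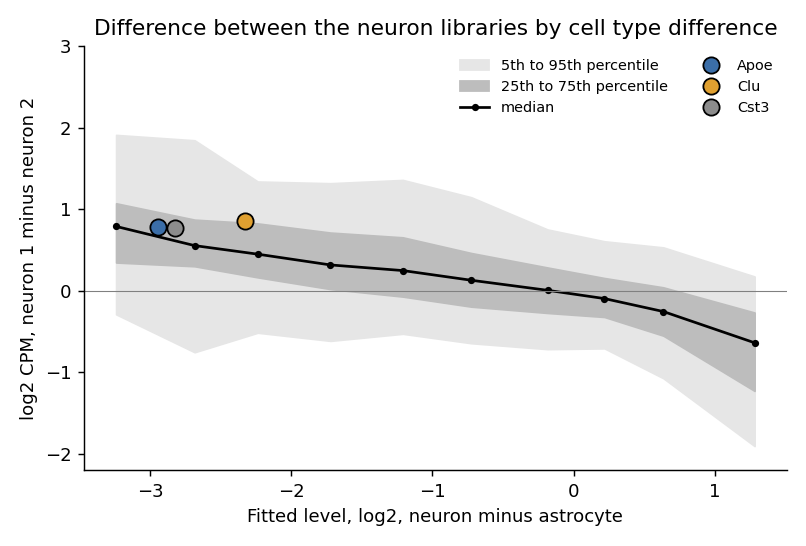
Difference in log2 CPM between neuron 1 and neuron 2 (vertical) against the fitted log2 difference, neuron minus astrocyte (horizontal). The line and bands give the median and percentiles of all tested transcripts in bins of the horizontal value, and the points are Apoe, Clu and Cst3, at 0.78, 0.86 and 0.77 on the vertical axis.

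The 3 transcripts did not keep 1 ratio to each other across the cell types. Clu took a larger part of their summed counts in neurons and Apoe a smaller part, while Cst3 changed little. Clu held 21.2% of the sum in astrocyte 1 and 20.6% in astrocyte 2, against 28.6% in neuron 1 and 27.5% in neuron 2. Apoe held 51.5% and 52.2% in astrocytes, against 45.4% and 46.0% in neurons. Cst3 held 27.4% and 27.2% in astrocytes, against 26.0% and 26.5% in neurons.

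The ranges of the cell types did not overlap for any of the 3, with wide gaps for Apoe and Clu and a gap close to the spread of the neuron pair for Cst3. The 3 shares are parts of a single sum and so are not independent, and no like share was computed for other transcripts. The 95% Wilson intervals of the Clu share ran from 20.4% to 21.4% over astrocytes and from 27.0% to 29.1% over neurons. The count ratio of a pair of genes depends on their lengths, but its change between libraries does not depend on length or library size. There were 2.43 and 2.54 Apoe counts for each Clu count in astrocyte 1 and 2, against 1.59 and 1.67 in neuron 1 and 2. Counts of Apoe for each Cst3 count were 1.88 and 1.92 in astrocytes, against 1.74 and 1.73 in neurons. Neuron 1 and neuron 2, which differed in the level of all 3, had nearly the same ratios.

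**Figure D3:**
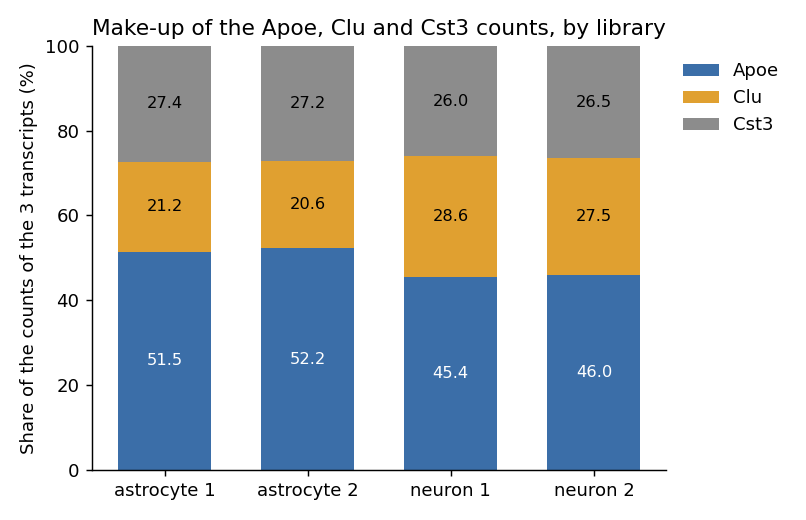
Share of Apoe, Clu and Cst3 in their summed counts, in percent, 1 bar per library. Clu takes 20.6% to 21.2% in astrocytes, against 27.5% to 28.6% in neurons.

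In likeness of pattern over the 4 libraries, measured as the root mean square difference of centred log2 CPM, Apoe and Cst3 were 0.065 apart, Clu and Cst3 0.24 and Clu and Apoe 0.31. Among 2208 other transcripts whose mean reached 100 CPM, the closest to Cst3 was ENSMUST00000004673, at 0.00952, with 2856 and 3019 CPM in astrocytes, against 561.3 CPM in neuron 1 and 330.0 CPM in neuron 2. The closest to Apoe was ENSMUST00000034023, at 0.0202, with 193.5 and 210.8 CPM in astrocytes, against 34.8 CPM in neuron 1 and 20.1 CPM in neuron 2. By this measure 7 of the 2208 were closer to Apoe than Cst3 was, and Cst3 ranked 8. Clu was less close, with 54 of the 2208 closer to Apoe and 53 closer to Cst3 than Clu was. In turn 89 were closer to Clu than Apoe was, and 73 closer to Clu than Cst3 was. No other transcript had the region b counts of Apoe, Clu or Cst3, and none was within 10% of them in every library, so the values do not repeat those of another counted ID.

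The second comparison asked where on the transcripts the footprints lay, a question raised by the study's title, which speaks of alternative translation. Region b held most of the counts of all 3 transcripts, from 85.1% for Cst3 in neuron 1 to 94.7% for Clu in neuron 1. Region a held most of the rest, and regions c and d together stayed under 0.3%. Relative to region b, region a of all 3 was above that of the typical transcript. Over the 4 libraries it was 8.52% of region b for Apoe, 9.26% for Clu and 13.6% for Cst3, against a median of 4.24% among the 7382 transcripts that reached 1000 region b counts in all. Of these, 72.0% had a lower value than Apoe, 74.7% a lower one than Clu and 84.9% a lower one than Cst3. Most of these counts of the 3 came from the astrocyte libraries, and in neuron 1 and neuron 2 Clu measured 5.50% and 6.06%. Regions can differ in length, and that was not corrected for.

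Clu differed most between the cell types in this measure. Its region a counts were 2859 and 3297 beside 28211 and 32161 region b counts in the astrocyte libraries, against 455 and 490 beside 8272 and 8083 in neuron 1 and 2. Region a was thus 10.1% and 10.3% of region b in astrocytes and 5.50% and 6.06% in neurons. The neuron values lay close together although the level of Clu differed between these libraries. The group means were 10.2% ± 0.0829 and 5.78% ± 0.397 (SD, n = 2 each), and the gap between the groups of 4.07 percentage points was larger than the spread within either pair. As a share of all Clu counts, region a was 9.19% (95% Wilson interval 8.88% to 9.52%) and 9.29% (8.99% to 9.60%) in astrocyte 1 and 2, against 5.21% (4.76% to 5.70%) and 5.71% (5.24% to 6.22%) in neuron 1 and 2.

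Apoe did not show this difference. Its region a was 8.56% of region b in astrocyte 1 and 8.27% in astrocyte 2, against 8.99% in neuron 1 and 9.38% in neuron 2. Both neuron values were slightly higher than both astrocyte values. How many of all transcripts show this order was not counted, so nothing is read from it. The means were 8.42% ± 0.204 and 9.19% ± 0.279 (SD, n = 2 each).

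Region a relative to region b was highest of the 3 for Cst3 in every library. It was 13.35% of region b in astrocyte 1 and in astrocyte 2, 17.32% in neuron 1 and 13.01% in neuron 2. The astrocyte libraries lay between the neuron libraries, so that neuron 1 alone stood apart, and the groups overlapped. The means were 13.4% ± 0.00118 and 15.2% ± 3.04 (SD, n = 2 each).

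**Figure D4:**
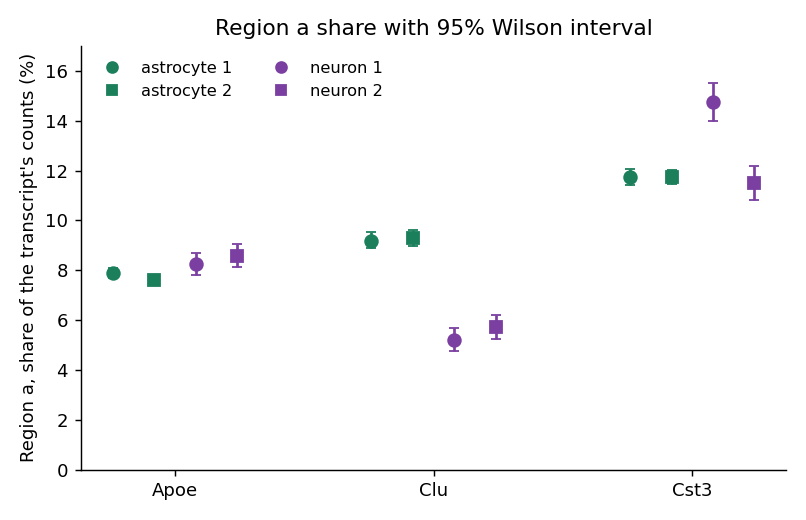
Region a as a share of all counts of the transcript, in percent, 1 point per library with its 95% Wilson interval, which covers counting error only. Clu lies at 9.19% and 9.29% in astrocytes, against 5.21% and 5.71% in neurons, and Cst3 in neuron 1 stands above its other libraries.

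An edgeR model of region a relative to region b, fitted over 8870 transcripts, gave log2 changes, neuron minus astrocyte, of -0.82 (SE 0.18) for Clu, 0.13 (SE 0.17) for Apoe and 0.17 (SE 0.18) for Cst3. The median of all tested transcripts was -0.21, so that relative to it Clu stood at -0.61, Apoe at 0.34 and Cst3 at 0.38. A lower change than that of Clu was found in 9.90% of tested transcripts, a lower one than that of Apoe in 79.3% and a lower one than that of Cst3 in 82.3%. In 1.08% of the tested transcripts the ratio passed the edgeR test, and 1.01% passed it as higher in astrocytes. Clu was among them, as 1 of the 3, and Apoe and Cst3 were not. Both astrocyte libraries exceeded both neuron libraries in 34.0% of the tested transcripts, and of the 3 in Clu only. As the contrast between the cell types was in view when the members were listed, no p-value is given. Nothing is read from the places of the 3 among all transcripts or from the call of Clu.

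The Clu change kept its direction in all 9 alternatives, from -0.89 to -0.58, the last with each region scaled to its own total, but its call did not hold. It was lost with DESeq2, with each region scaled to its own total and with the replicate block, which replaced the term for each library. The call was also lost without astrocyte 1 or astrocyte 2. The Cst3 change turned to -0.04 without neuron 1. Scaling each region to its own total moved the median of all transcripts to 0.03. It shifts all transcripts by nearly the same amount, so by construction Clu stayed at -0.61 relative to the median.

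**Figure D5:**
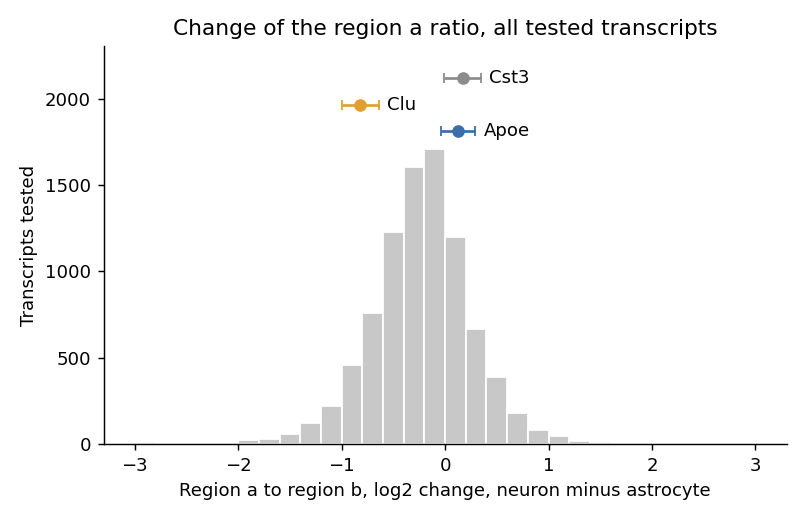
Number of transcripts by log2 change of the region a to region b ratio, neuron minus astrocyte, for 8870 tested transcripts, with any values beyond the axis in the end bins. The points above give Clu at -0.82, Apoe at 0.13 and Cst3 at 0.17 with bars of 1 standard error, and their height has no meaning.

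Between the genes, the region a to region b ratio of Cst3 exceeded that of Apoe in 4 of 4 libraries, by 0.69 ± 0.20 on the log2 scale, and that of Clu in 4 of 4, by 0.88 ± 0.61 (mean difference ± SD, n = 4). The two-sided exact permutation p over signs was 0.125 for each, the smallest that 4 libraries allow, and 0.188 after Benjamini-Hochberg adjustment over the 3 pairs. Region lengths are fixed for a transcript and were not corrected for. Length and footprint density therefore cannot be told apart in these differences between genes, and the p-values do not separate them. The Cst3 excess over Clu was 0.40 and 0.38 in astrocytes, against 1.65 in neuron 1 and 1.10 in neuron 2. Clu and Apoe changed order, though where 0 lies between them depends on those lengths. Clu exceeded Apoe by 0.24 and 0.31 in astrocyte 1 and 2 but lay at -0.71 and -0.63 against it in neuron 1 and 2, with a mean of -0.20 ± 0.55 (SD, n = 4, exact permutation p = 0.500, adjusted p = 0.500).

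The 3 transcripts supplied 2.39% and 2.40% of all region a counts in astrocytes, against 0.550% in neuron 1 and 0.309% in neuron 2. Over all transcripts region a held 1.12 percentage points more of the counts in astrocytes than in neurons, and 1.10 points more when Apoe, Clu and Cst3 were left out.

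Region c was sparse, and relative to region b it measured higher in both astrocyte libraries than in both neuron libraries for Clu and Cst3. Cst3 had 66 and 111 region c counts in astrocyte 1 and 2, against 9 in each neuron library, which was 0.186% and 0.269% of region b against 0.133% and 0.123%. Clu had 31 and 30 counts in astrocyte 1 and 2, against 4 in each neuron library, or 0.1099% and 0.0933% against 0.0484% and 0.0495%. Apoe had 78 and 148 counts against 8 and 15, or 0.112% and 0.178% against 0.0629% and 0.114%, and its groups overlapped. The fitted log2 changes were -0.68 (SE 0.59) for Apoe, -1.004 (SE 0.56) for Clu and -0.80 (SE 0.49) for Cst3. Of the 292 transcripts whose region c ratio could be fitted, 21.2% had both astrocyte libraries above both neuron libraries, as 2 of the 3 did here. The filter on low values can be passed through the libraries of a single cell type. Region c of Clu and Cst3 lay under its minimum count in both neuron libraries and above it in both astrocyte libraries. Their higher values in astrocytes are thus partly a condition of being fitted, and nothing is read from the comparison with 21.2%. With at most 15 counts per neuron library the values are imprecise. The Wilson interval of the region c share of Clu was 0.0178% to 0.118% in neuron 1 and 0.0702% to 0.141% in astrocyte 1, and that of Cst3 was 0.0595% to 0.215% and 0.129% to 0.209%. For both genes these intervals overlap. For Apoe the interval in astrocyte 2, 0.140% to 0.193%, lay above that in neuron 1, 0.0292% to 0.114%, while that in astrocyte 1, 0.0826% to 0.129%, overlapped it.

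Region d was emptier still. Apoe had a count of 0 in all 4 libraries, which allows up to 0.00397% and 0.00333% of its counts in astrocyte 1 and 2 and up to 0.0216% and 0.0209% in neuron 1 and 2. Clu had 2 counts in each library except neuron 1, where it had 1. Cst3 had 18 and 24 in astrocyte 1 and 2, against 4 and 3 in neuron 1 and 2, or 0.0508% and 0.0581% of region b against 0.0590% and 0.0410%. Over the 4 libraries region d was 0.00912% of region b for Clu and 0.0540% for Cst3, under the median of 0.0944% among the 7382 transcripts, while region c of all 3 was above its median of 0.0386%. Region c thus exceeded region d in every library for each of the 3, a pattern singled out after the values were seen. It was met by 345 of the 7382 transcripts (4.67%), and by 6 of the 11 with at least as many region b counts as Clu, 3 of which are Apoe, Clu and Cst3 themselves.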

How the data were processed

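Footprints were measured in 4 libraries. The authors deposited a count per transcript region for each, in whole numbers without normalization, and a region without a line was read as 0. The tools, per the submitters' processing notes and with no role stated, were STAR 2.3.1z8, Bowtie2 2.2.2, Trimmomatic 0.32, FastQC 0.11.2, edgeR and bedtools. Not given in the sources used here are the annotation, the build, whether strand was used, and how a read with several matching transcripts was counted, which could raise or lower a value. Each transcript's regions were added up and fitted with edgeR 4.0.16 (quasi-likelihood, TMM factors, filterByExpr with a minimum count of 10, Benjamini-Hochberg) in R 4.3.3. Ratios of region a or c to region b were fitted with a term per library, region and region by cell type, with the library total as offset. Standard errors come from the log2 change and the F statistic (change over root F). Wilson intervals at 95%, and the limit of 3 counts behind a 0, cover counting error only.

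The members, lists and rules were chosen with earlier results of these data known. Named are the 3 members and, as most alike, the transcripts nearest to Cst3 and to Apoe. Both models were tested on simulated counts with 200 changed transcripts. Of 100 changed 4-fold, 100 were recovered for levels over 18819 transcripts and 83 for the region a ratio over 8870. Of 100 changed 2-fold, 60 and 13 were recovered. The simulation used a single dispersion for every transcript and library and drew regions a and b of a library independently. The recovered numbers hold for that setting and may differ in these data. The edgeR calls rest on the spread between libraries of a cell type, each a pool of 2 brains. The permutation p-values take the 4 libraries of both cell types together, so their spread also holds differences between the cell types. Gene list tests and levels per length were not run, as no table used here pairs transcripts with genes or gives their lengths.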

Additional observations from a re-analysis of the deposited data

Results flagged for a closer look

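The region a to region b ratio of Clu against that of Apoe had opposite signs in the cell types. On the log2 scale Clu exceeded Apoe by a mean of 0.28 in the astrocyte libraries, with both libraries above 0, and lay at a mean of -0.67 against it in the neuron libraries, with both below 0. Where 0 falls depends on the uncorrected region lengths of Clu and Apoe, while the change between the cell types does not. The pair was flagged for this split by cell type, a contrast in view when the members were chosen. No like share was computed for other pairs of transcripts, and the difference between the cell types was not tested.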

How the results depend on the processing

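For the fits, SD is the root of the summed variances of log2 values within the astrocyte pair and the neuron pair. The fitted level differences of Apoe, Clu and Cst3 stayed within 1 SD of the main value in all 36 alternative values (12 per gene). They ranged from -3.42 to -2.59, -2.84 to -1.94 and -3.28 to -2.46. The region a ratio stayed within 1 SD in 25 of 27. The exceptions were Apoe at 0.36 and Clu at -0.58 with each region scaled to its own total. Values with 1 library left out could hardly fall outside, since the SD holds the gap of that library's pair. Region b counts only moved the share among the 3 to 52.7% for Apoe in astrocytes, 29.1% for Clu in neurons, and 26.5% and 25.03% for Cst3 in astrocytes and neurons. The region a share of Cst3 in astrocytes became 11.78% of regions a and b, against 11.75% of all regions. The region a differences between genes kept their sign in 15 of 15 alternatives, but that of Clu minus Apoe, -0.20, moved to -0.34 without astrocyte 1, -0.37 without astrocyte 2, -0.026 without neuron 1 and -0.052 without neuron 2.

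The number of transcripts called for level, 3219, ranged from 1523 to 8958 with 1 library left out, and those higher in astrocytes, 2422, from 1357 to 4764. For the region a ratio, 96 calls (90 higher in astrocytes) became 12 (9) under that same scaling, 11 (11) under DESeq2 and 1 (1) with the replicate block, and ranged from 1 to 207 (1 to 186) with 1 library left out, where the lone library was assumed to vary like the complete pair. Beyond these constructions the cause was not tested. No label says that equal replicate numbers pair libraries, and their deviations correlated at r = -0.0818 over 18819 transcripts. The replicate block gave 3416 calls for level and changed no call of Apoe, Clu or Cst3 there, with log2 values of -3.002, -2.39 and -2.87. In the region a ratio fit the block took the place of the term per library, with terms for cell type and replicate. Regions a and b were then no longer matched within a library, so this setting does not show the effect of replicate pairing alone. The Clu ratio was -0.83 there with an SE of 0.38, against 0.18 in the main fit, and its call was lost. Depth limits regions c and d. Levels per length were not run.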
